A study of Mus musculus with 12 samples.

Results

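Replication-dependent histone genes encode the linker histone H1 and the core histones H2A, H2B, H3 and H4 that package newly replicated DNA. They were chosen here as the protein-coding genes of the deposited table whose symbols start with Hist1h, Hist2h, Hist3h or Hist4h. This gave 67 of 54532 genes, or of 22046 protein-coding genes, and 3 pseudogenes with such symbols were left out. By class they comprised 6 H1, 18 H2A, 18 H2B, 12 H3 and 13 H4 genes. By location, 54 lay in the Hist1 cluster on chromosome 13, 10 in the Hist2 cluster on chromosome 3, 2 in Hist3 on chromosome 11 and 1, Hist4h4, on chromosome 6. All 67 had the same mm10 coordinates in the table and in the GENCODE M21 annotation.

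RNA came from limb buds of mouse embryos at the stage E12.5, counted in days of embryonic development. The control embryos (cHet) carried Mettl14 wt/flox, that is 1 wild-type and 1 floxed allele, and the knockout embryos (cKO) carried Mettl14 flox/flox. Mettl14 encodes a subunit of the enzyme that writes N6-methyladenosine on RNA. Cytoplasmic RNA (input) and RNA from the polysome part of a sucrose gradient (polysome) were sequenced in 3 libraries per genotype and fraction, called biological replicates in the labels. Polysomes were purified from cytoplasmic fractions, and an input and a polysome library of one genotype and number are taken here to come from one lysate, although the labels do not spell this out. There is no group without a floxed allele, so every comparison of genotypes is with heterozygous limb buds. The Cre driver, the deleted exons, the number of embryos per library and whether RNA was selected by its poly(A) tail or depleted of ribosomal RNA are not given in the sources used here.

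Most of these genes are transcribed in S phase, when chromatin is duplicated. Their mRNAs are the ones that, in place of a poly(A) tail, end just after a conserved stem-loop, which the stem-loop binding protein SLBP holds from processing through translation to decay. Some of them can also be read through to a poly(A) site further on, mainly in cells that leave the cell cycle. Hist1h1t, Hist1h2aa and Hist1h2ba are known from the testis rather than from dividing somatic cells.

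The stem-loop is shown because it is what sets these mRNAs apart, and because the H4 genes carried a version of their own. It was searched in GENCODE M21 transcripts as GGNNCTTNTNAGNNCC with the 6 outer bases on each side able to pair, on the sense strand. It was found in 46 of the 67 genes (68.7%) and in 17 of 58725 other protein-coding transcripts (0.0289%). Below, capitals mark the 16 bases of the stem-loop and lower case the transcript around it.
Hist3h2ba: ccaaaGGCTCTTTTCAGAGCCacctt
Hist1h2bj: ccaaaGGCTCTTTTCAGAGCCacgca
Hist1h1c: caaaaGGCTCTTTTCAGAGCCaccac
Hist1h3c: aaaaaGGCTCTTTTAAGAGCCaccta
Hist2h2ac: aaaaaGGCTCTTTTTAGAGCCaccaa
Hist1h4i: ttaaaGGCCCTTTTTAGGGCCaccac
Hist1h4j: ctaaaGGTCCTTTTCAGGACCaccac
The form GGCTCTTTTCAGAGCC was in 26 genes of the classes H1, H2A, H2B and H3, and all 34 genes outside H4 with a stem-loop had a stem of GGCTCT and AGAGCC. The 12 H4 genes with a stem-loop had another stem. It was GGCCCT with AGGGCC in 10 of them, as in Hist1h4i, and GGTCCT with AGGACC in Hist1h4b and Hist1h4j. In Hist3h2ba the stem-loop began 28 bases after the stop codon and in Hist1h4i 30 bases after it.

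The gene models differed in where they ended. In 28 genes the annotated model ended within 200 bases of the stem-loop, in 18 it ran on for more than 200 bases, 8 had a 3′ untranslated region without the pattern, and 13 models had none. Hist2h2be, an H2B gene (chromosome 3, 96221119 to 96223738, plus strand), stood apart with a 3′ untranslated region of 2192 bases and no match. FPKM, the unit of the table, counts fragments per kilobase of this model, scaled to the depth of the library, so a long model lowers the value of a gene whose reads stop at the stem-loop.

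Promoters, the 250 bases before and 50 after the start site (RefSeq, GRCm38.p6), were matched for 60 of the 67 genes. The letters CCAAT, on either strand, were in 51 of the 60 (85%) against 37.4% of all 32544 promoters of that length. They were in all 5 H1, 17 H2A, 16 H2B and 10 H3 promoters matched, and in 3 of 12 for H4 (25.0%). TATAAA was in 34 of 60 (56.7%) against 13.6% of all promoters. The octamer ATTTGCAT was in 7 of 17 H2A and 6 of 16 H2B promoters, in none of the other 3 classes, and in 1.75% of all promoters. The promoters of an H2B and an H4 gene that differed in their values are shown, with CCAAT, its reverse complement ATTGG and TATAAA in capitals.
Hist1h2bj (chr13:22042948-22043247, plus strand): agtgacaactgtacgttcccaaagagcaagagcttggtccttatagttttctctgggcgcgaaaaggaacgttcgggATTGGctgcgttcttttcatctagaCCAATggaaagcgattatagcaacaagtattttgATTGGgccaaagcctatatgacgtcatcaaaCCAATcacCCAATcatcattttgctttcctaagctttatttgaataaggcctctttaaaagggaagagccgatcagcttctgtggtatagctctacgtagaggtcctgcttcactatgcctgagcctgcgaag
Hist1h4i (chr13:22041313-22041612, minus strand): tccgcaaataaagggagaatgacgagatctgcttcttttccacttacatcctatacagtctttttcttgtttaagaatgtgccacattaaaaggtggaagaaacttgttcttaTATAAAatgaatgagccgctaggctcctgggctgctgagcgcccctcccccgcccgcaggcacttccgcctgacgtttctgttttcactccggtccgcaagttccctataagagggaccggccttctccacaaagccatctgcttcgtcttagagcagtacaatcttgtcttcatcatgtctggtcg
The Hist1h2bj window held CCAAT or its complement 5 times and the Hist1h4i window 0 times. Such a match describes the letters only. Histone genes also sit head to head. In 13 pairs the start sites of divergent neighbours lay 175 to 659 bases apart, and 12 of these pairs joined an H2A and an H2B gene, as with Hist1h2bj and Hist1h2ag (269 bases). The promoter windows of such pairs can overlap, so a site can count for both genes. The 5 CCAAT matches of Hist1h2bj are also those of Hist1h2ag. The promoter counts above are therefore not all of separate sites.

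The libraries held 10349912 to 30068823 assigned reads, of which the 67 genes took 3165 to 9585. Mettl14 stood at 4.09, 4.03 and 4.04 FPKM in cHet input and 2.60, 3.32 and 1.26 in cKO input. The input groups did not overlap, where 12.48% of all genes tested were lower without overlap. By limma Mettl14 did not pass in input (log2 −0.83, adjusted p = 0.295). It had 2.83, 3.07 and 3.02 on cHet polysomes and 2.73, 2.81 and 3.29 on cKO polysomes, where the groups overlapped. The polysome values therefore gave no check of the knockout labels (log2 −0.02, adjusted p = 0.954), and cKO polysomes stand here for the libraries labelled so. The reason was not tested. In a principal component analysis, cKO input replicate 3 and cKO polysome replicate 1 lay away from the rest of their groups. The first was at −63.0 on the second component, against 0.49 to 22.5 for the other input libraries. The second was at 3.97 on the first component, against 35.5 to 53.8 for the other polysome libraries. The input libraries were at −41.5 to −36.2 on that component, so cKO polysome replicate 1 lay between the fractions. Counts of histone genes that passed between genotypes or rose in cKO, and several sums and medians, are also given without 1 or both of these libraries. Counts by direction, by overlap and at an unadjusted p, and the values of other gene lists, rest on all libraries of a comparison.

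The 67 genes were unequal in level. Hist3h2ba, an H2B gene, had the highest mean FPKM over the 12 libraries (49.6), followed by Hist1h4i (39.1), Hist1h2ao (24.5), Hist1h2ae (21) and Hist1h3c (17.3). The H1 gene with the highest mean was Hist1h1c (13.2). At the other end, 7 genes were listed at 0 in every library, namely Hist1h2aa, Hist1h2ba, Hist2h2aa1, Hist2h2aa2, Hist2h2bb, Hist2h3b and Hist2h3c1. Many of the genes are near copies of each other. Of the 100-base windows of each model, at least 50% occurred in no transcript of another gene for 39 of the 67, and 0% did for 5 genes, all of them among the 7 listed at 0. Hist3h2ba had 95.1% such windows and Hist1h4i 84.9%, but Hist1h2ao had 7.35% and Hist1h3h 8.01%. How reads that fit several copies were counted is not known, and the order of levels above may depend on it. Class sums are given beside single genes, but reads left uncounted would be missing from them too.

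**Figure D1:**
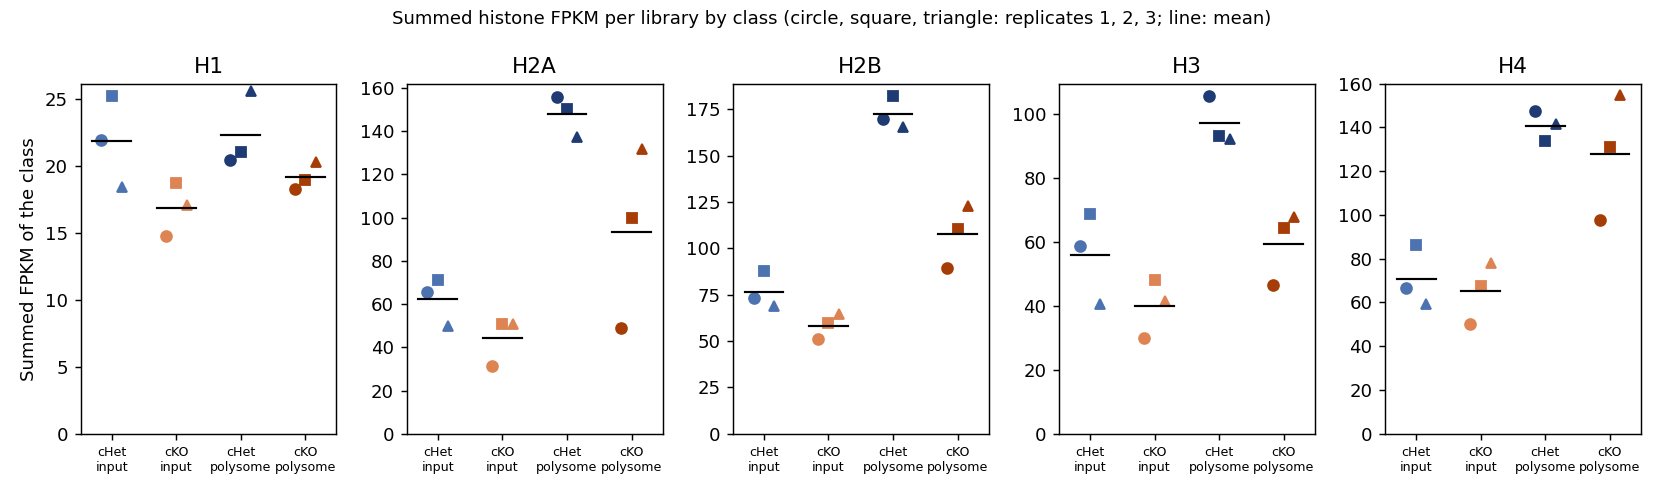
Summed FPKM of the genes of each histone class (y axis of each panel, starting at 0) in the 12 libraries, by group (x axis); circles, squares and triangles are replicates 1, 2 and 3 and the line is the mean of 3. The H2A, H2B, H3 and H4 sums are higher on polysomes than in input in cHet, and the H1, H2A, H2B and H3 sums are lower on cKO than on cHet polysomes, without overlap.

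The first comparison asked how histone mRNAs stand on polysomes relative to the cytoplasm of control limb buds. Core histone mRNAs took a larger share of polysome RNA than of input RNA, while no linker histone gene passed the test. The summed FPKM of all 67 genes was 286, 339 and 237 in cHet input and 599, 580 and 562 on cHet polysomes, a ratio of means of 2.02. Polysome libraries were thus all above input libraries. The ratio was 2.38 for H2A, 2.25 for H2B, 1.73 for H3 and 1.99 for H4, each without overlap, and 1.02 for H1, whose groups overlapped (18.5 to 25.3 in input, 20.4 to 25.6 on polysomes). Without gene models over 1 kb the H1 difference turned from 0.03 to −0.76 on the log2 scale. FPKM is a relative measure that depends on how libraries are scaled, so a gene is placed only relative to the other RNAs of its fraction.

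Of the 67 genes, 51 reached the level required for a test, which was at least 3 of the 12 libraries with an FPKM of 1 or more. Of these 51, 32 rose on cHet polysomes by limma at an adjusted p under 0.05, where 27.3% of all 13610 genes tested did, and 0 fell (25.9% of all genes). The median log2 difference was 0.90 against 0.02 over all genes. The genes that rose were 10 of 13 H2A, 11 of 14 H2B, 5 of 8 H3 and 6 of 12 H4 genes, and 0 of 4 H1 genes. Of the 51, 6 reached the level through polysome libraries, with fewer than 3 input libraries at an FPKM of 1 or more, which favours a rise (Hist1h2af, Hist1h2ap, Hist1h2be, Hist1h2bh, Hist1h2bp and Hist1h4b). Of the other 45, 27 rose, where 27.2% of all genes chosen in that way did. The median log2 difference of these 45 was 0.80, against −0.02 over all genes so chosen. The class counts above include the 6. All 47 core histone genes tested had a log2 difference above 0, between 0.16 and 2.68, where 49.2% of all genes were below 0. These 47 also include the 6, and the value of 2.68 is that of Hist1h2af.

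Hist3h2ba stood at 27.1, 35.6 and 28.3 FPKM in cHet input and at 85.5, 98.5 and 76.1 on cHet polysomes (log2 1.51, SE 0.19, adjusted p = 0.000148). The lowest polysome library was above the highest input library. Hist1h4i had 20.4, 21.4 and 22.5 in input and 61.7, 43.6 and 57.3 on polysomes (log2 1.32, SE 0.20, adjusted p = 0.000369). The other H4 genes among the 3 with the highest means were Hist1h4k (log2 0.73, adjusted p = 0.0507) and Hist1h4j (log2 0.90, adjusted p = 0.0104). Hist1h2bc, an H2B gene whose model holds 742 bases of 3′ untranslated region and no stem-loop match, had 8.08, 6.83 and 7.09 against 17.1, 16.3 and 16.6 (log2 1.17, SE 0.12, adjusted p = 8.61e-05). Its direction was that of the other core histone genes.

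The 5 genes that rose most were, beside Hist3h2ba, all H2A genes of the Hist1 cluster. Hist1h2af, at 1.12, 0.353 and 0.350 in input and 3.64, 3.73 and 4.48 on polysomes, had the largest difference (log2 2.68, SE 0.62, adjusted p = 0.00358), from 3 to 65 reads per library. Hist1h2ag (log2 1.88), Hist1h2ah (1.71) and Hist1h2ap (1.48) followed at adjusted p between 0.00231 and 0.00443. Hist1h2af and Hist1h2ap are among the 6 that reached the test through polysome libraries, and Hist1h2ap lay below an FPKM of 1 in all 6 input libraries. Their models hold between 7.83% and 23.8% windows of their own.

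Linker histone genes gave other values. Hist1h1c had 12.1, 14.1 and 13.0 in cHet input and 14.6, 15.3 and 19.5 on polysomes (log2 0.32, adjusted p = 0.101), without overlap and without passing. Hist1h1a had 3.84, 4.63 and 2.12 against 2.20, 2.01 and 2.30 (log2 −0.61, adjusted p = 0.0756). Hist1h1b had 3.57, 3.79 and 1.60 against 1.30, 1.75 and 1.68 (log2 −0.80, adjusted p = 0.0546). In both, input replicate 3 lay near the polysome libraries and the other 2 input libraries above them, and without that library 2 histone genes fell (20.3% of all genes) and 19 rose (22.0%). Gene length moved with fraction as well. With the length trend over all genes removed, 21 histone genes rose (26.8% of all genes) and 2 fell (21.9%). With scaling to protein-coding FPKM, which shifts the median of all genes by −0.23, also 21 rose (18.1%) and 2 fell (33.6%).

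In the knockout, H2A again had the highest ratio of polysome to input means (2.11) and H1 the lowest (1.14), with H4 (1.961), H2B (1.85) and H3 (1.49) between them. The groups overlapped for H1, H2A and H3 and not for H2B and H4. Summed FPKM was 177, 245 and 252 in cKO input and 301, 425 and 498 on cKO polysomes, a ratio of means of 1.82 without overlap. Polysome replicate 1, which stood apart, was the lowest of the polysome libraries, and input replicate 1 the lowest of the input libraries. Of the 51 genes, 13 rose where 16.9% of all genes did, 0 fell (15.6%), and the median log2 difference was 0.63 against 0.06 over all genes. The 13 were 6 H2A, 4 H2B, 1 H3 and 2 H4 genes. Without the 6 genes that reached the test through polysome libraries, 12 of 45 rose, against 17.2% of all genes chosen in that way.

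Among the 13, Hist1h4i had 20.7, 17.7 and 27.5 in cKO input and 53.4, 48.3 and 74.6 on cKO polysomes (log2 1.41, SE 0.20, adjusted p = 0.000838). Hist3h2ba had 23.5, 19.2 and 29.4 against 51.0, 51.7 and 69.0 (log2 1.26, SE 0.19, adjusted p = 0.000994). Hist1h2ap (log2 1.38), Hist1h2ag (1.30) and Hist1h2ae (1.15) were the others with the largest differences, of which Hist1h2ap was tested through its polysome values. Hist1h4j also rose (log2 0.89, adjusted p = 0.0197). Hist1h2bc had 5.70, 6.02 and 5.95 against 10.7, 12.4 and 11.7 (log2 0.97, adjusted p = 0.000337), a narrow spread in both groups.

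Single libraries set this count. It was 30 (22.4% of all genes rose) without polysome replicate 1 and 21 (22.1%) without input replicate 3, and 31 (29.5%) without both. It was 6 (15.0%) without input replicate 1, 5 (12.52%) without polysome replicate 2 and 4 (8.78%) without polysome replicate 3. With the lysate as a block it was 22 (18.1%). The median log2 difference ranged from 0.44 to 0.92 when single libraries were left out.

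**Figure D2:**
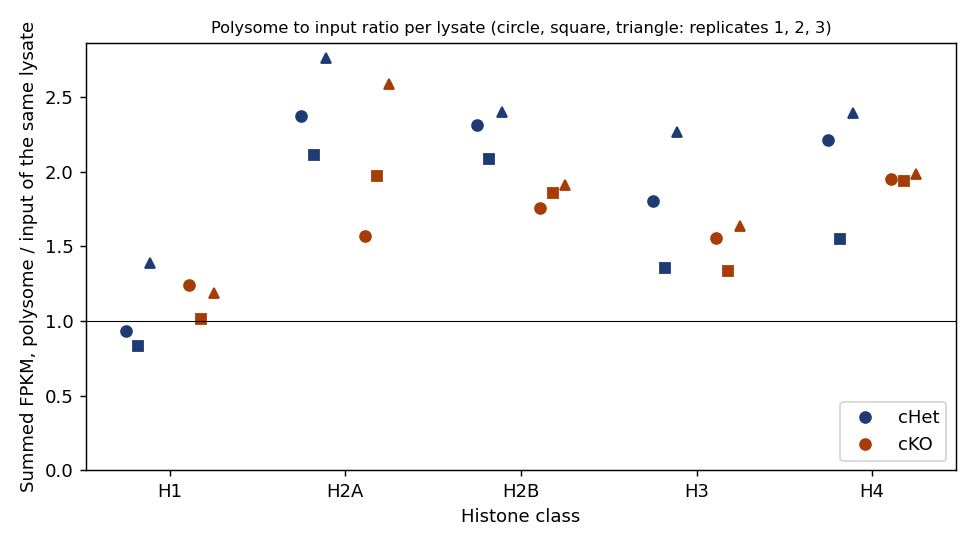
Polysome FPKM divided by input FPKM of the same lysate (y axis, starting at 0), after summing over the genes of each histone class (x axis), for 3 cHet and 3 cKO lysates; circles, squares and triangles are replicates 1, 2 and 3 and the line marks a ratio of 1. H1 lies between 0.83 and 1.39 and the core classes between 1.33 and 2.76.

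Lysate by lysate, the polysome to input ratio of all 67 genes was 2.09, 1.71 and 2.37 in cHet and 1.70, 1.74 and 1.98 in cKO. These ranges overlap. For H2B the ratios were 2.31, 2.08 and 2.40 in cHet and 1.75, 1.86 and 1.91 in cKO, without overlap, and for H4 they were 2.22, 1.55 and 2.39 against 1.95, 1.94 and 1.99, with overlap. The plot of polysome to input ratios by lysate shows H2B as the one class whose genotypes are separate. For single genes, 9.72% of all 13610 tested had lower lysate ratios in cKO without overlap, and 6 of the 51 histone genes did. From group means, the H2B difference between genotypes in this step was −0.28 on the log2 scale, −0.17 without cKO polysome replicate 1, −0.39 without replicate 3 and −0.089 without both libraries that stood apart, so its size rests on them.

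The difference between genotypes in the polysome to input step was tested as an interaction over all 12 libraries. By limma 0 of 13610 genes passed (0.0%), with a lowest adjusted p of 0.79, and 0 of the 51 histone genes reached an unadjusted p under 0.05, where 1.76% of all genes did with lower and 2.92% with higher values. Voom on the recovered reads also called 0 genes. Their median was −0.22, with 38 of 51 below 0 where 47.4% of all genes were. Without both libraries that stood apart the median was 0.06, so the sign rests on them. The 4 with the smallest p were Hist1h2bn (log2 −0.70), Hist1h1a (0.78), Hist1h2bp (−1.16) and Hist1h2be (−0.68), each at an adjusted p of 0.79. Hist1h2bp and Hist1h2be reached the test through polysome libraries. On polysomes Hist1h2be did so through cHet libraries alone, which favours a negative difference. The 51 genes here and in the lysate count include all 6 that reached the test through polysome libraries.

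The next comparison asked whether cytoplasmic histone mRNA differed between knockout and heterozygous limb buds. Most histone genes had lower values in cKO input, by amounts within or near the spread between libraries, and none passed the test. By limma 0 of 12977 genes passed (0.0%), with 588 lower and 1355 higher at an unadjusted p under 0.05, and voom on the recovered reads called 0 as well. Without cKO input replicate 3, which stood apart, 326 genes passed, 249 higher (1.94%) and 77 lower (0.6%). Without cKO input replicate 2, 47 passed, and in a fit on all 12 libraries 82. In each of these 0 histone genes passed. Of 45 histone genes tested, 9 were lower without overlap of the groups (12.48% of all genes) and 0 higher (16.9%). At an unadjusted p under 0.05, 9 were lower (4.53% of all genes) and 0 higher (10.4%). The summed FPKM of 286, 339 and 237 in cHet against 177, 245 and 252 in cKO overlapped, with a ratio of means of 0.78. Hist1h3f was the 1 gene of the 45 tested through cHet libraries alone, with every cKO value below an FPKM of 1. In whole limb buds, fewer cells of a kind, such as fewer cells in S phase, and less RNA per cell cannot be told apart.

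By class, the median log2 difference in input was −0.31 for 4 H1, −0.52 for 11 H2A, −0.49 for 11 H2B, −0.45 for 8 H3 and −0.24 for 11 H4 genes. In all, 40 of 45 genes had values below 0, where 51.4% of all genes did, including all 4 H1, all 11 H2A and all 8 H3 genes, 9 of 11 H2B and 8 of 11 H4 genes. Only for H2B did the class sums separate, at 73.4, 87.6 and 69.0 in cHet and 50.9, 59.5 and 64.3 in cKO. The H2A sums of 65.5, 71.1 and 49.7 and of 31.3, 50.7 and 50.9 overlapped through cHet replicate 3, which had the lowest sum of its group in all 5 classes.

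Hist2h2be had the smallest p, at 6.36, 6.53 and 6.55 FPKM in cHet input and 3.18, 4.64 and 3.28 in cKO input (log2 −0.81, SE 0.17, adjusted p = 0.147). The cHet values lay within a narrow range, and each cKO value was below them. Hist1h3f, an H3 gene, had 1.42, 1.38 and 1.02 against 0.737, 0.718 and 0.496 (log2 −0.88, SE 0.25, adjusted p = 0.206). The H2A genes Hist1h2ad (log2 −0.74, adjusted p = 0.220) and Hist1h2ab (log2 −0.64, adjusted p = 0.244) came next, also without overlap. Hist3h2ba, the gene with the highest mean, had 27.1, 35.6 and 28.3 against 23.5, 19.2 and 29.4 (log2 −0.35, adjusted p = 0.423), and its groups overlapped. Hist1h4i differed by 0.01 (SE 0.17, adjusted p = 0.973).

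On cKO polysomes most H2A, H2B and H3 mRNAs had lower values than on cHet polysomes, and again no histone gene passed. Summed FPKM was 599, 580 and 562 on cHet and 301, 425 and 498 on cKO polysomes, a ratio of means of 0.70 without overlap. By limma 0 of 12877 genes passed (0.0%), with 1078 lower and 1665 higher at an unadjusted p under 0.05, and voom again called 0. Of the 51 histone genes tested, 45 had values below 0 (47.1% of all genes), 24 were lower without overlap (13.5%) and 0 higher without overlap (17.9%). At an unadjusted p under 0.05, 25 were lower (8.37%) and 0 higher (12.9%). The smallest adjusted p among them was 0.0780. Here Hist1h2be was tested through cHet libraries alone. Over all genes, 160 passed without cKO polysome replicate 1, 231 without replicate 2 and 184 in a fit on all 12 libraries.

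The class medians on polysomes were 0.03 for 4 H1, −0.69 for 13 H2A, −0.63 for 14 H2B, −0.59 for 8 H3 and −0.34 for 12 H4 genes. Those lower without overlap were 1 H1, 4 H2A, 10 H2B, 6 H3 and 3 H4 genes. The H2B sum was 170, 182 and 166 on cHet and 89.3, 111 and 123 on cKO polysomes. The H3 sum was 106, 93.0 and 92.2 against 46.4, 64.1 and 67.6. Both were apart by more than the range within either group. The H2A sum of 156, 150 and 137 against 49.1, 99.7 and 132 was apart by less, since cKO replicate 3 lay just under the lowest cHet library. On the log2 scale the H2A ratio of means was −0.66, and −0.35 without cKO polysome replicate 1. For H2B it was −0.68 and −0.56, and for H3 −0.71 and −0.56. The H1 sum, at 20.4, 21.03 and 25.6 against 18.3, 19.0 and 20.3, also did not overlap (ratio of means 0.86), but without gene models over 1 kb its difference turned from −0.22 to 0.12 on the log2 scale.

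**Figure D3:**
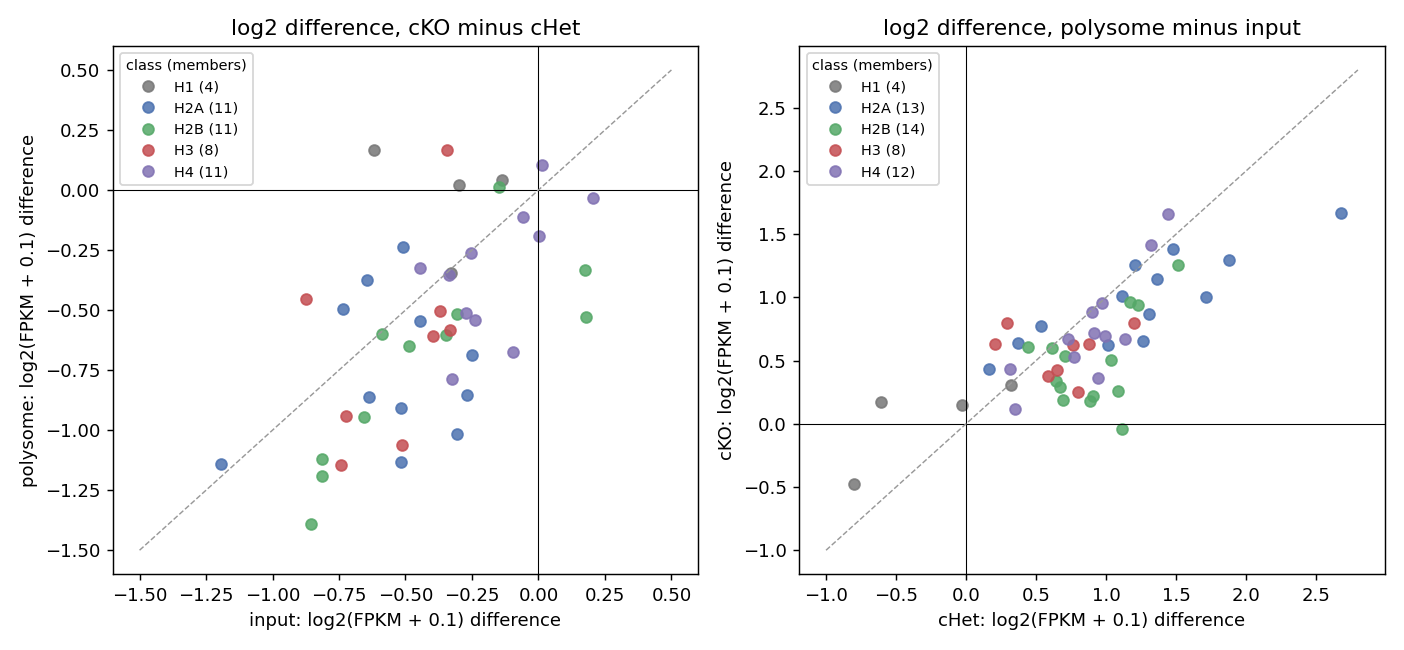
Each point is a histone gene tested in both comparisons of a panel, coloured by class, with log2(FPKM + 0.1) differences on both axes; left, cKO minus cHet in input (x) and on polysomes (y), right, polysome minus input in cHet (x) and cKO (y), and the dashed line marks equal values. Most genes lie below 0 on both axes on the left and above 0 on both axes on the right, where 3 of the 4 H1 genes lie below 0 in cHet.

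Hist1h2bl, an H2B gene of chromosome 13, stood at 4.84, 5.86 and 6.65 FPKM on cHet and at 2.56, 2.71 and 2.49 on cKO polysomes (log2 −1.12, SE 0.15, adjusted p = 0.0780). The 3 knockout libraries lay close together, the one that stood apart included. Hist2h2be had 10.1, 10.1 and 11.0 against 3.67, 5.57 and 4.40 (log2 −1.19, SE 0.17, adjusted p = 0.0780). It is also the gene with the smallest p in input, so in both fractions the gene of the longest 3′ untranslated region among the genes without a stem-loop match was among the lowest in cKO relative to cHet. Hist3h2a, the H2A gene of the Hist3 cluster, had 3.60, 3.90 and 4.03 against 1.65, 2.04 and 2.37 (log2 −0.91, SE 0.16, adjusted p = 0.0845). Hist1h3h, an H3 gene, had 28.6, 24.5 and 21.6 against 7.55, 13.4 and 13.6 (log2 −1.14, SE 0.24, adjusted p = 0.0866).

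Hist1h2bj, whose promoter is shown above, had 13.2, 15.9 and 15.5 on cHet and 3.07, 7.61 and 7.43 on cKO polysomes (log2 −1.39, SE 0.32, adjusted p = 0.0953). Here cKO replicate 1 was below the other 2 knockout libraries, which were themselves below every control. Without replicate 1 the log2 difference of Hist1h2bj was −0.97. Its divergent neighbour Hist1h2ag had 8.61, 11.9 and 7.71 against 2.74, 5.61 and 8.43, with overlap. Of 9 head-to-head pairs with both genes tested, both had negative differences in 8, where 45 of all 51 histone genes tested were below 0. Hist3h2ba had 85.5, 98.5 and 76.1 against 51.0, 51.7 and 69.0 (log2 −0.60, adjusted p = 0.140), and the H2B gene Hist1h2bc 17.1, 16.3 and 16.6 against 10.7, 12.4 and 11.7 (log2 −0.52, adjusted p = 0.111), both without overlap.

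Among the H3 genes with the highest means, Hist1h3c had 26.1, 24.7 and 24.4 against 15.9, 17.1 and 20.1 (log2 −0.50, adjusted p = 0.132), and Hist1h3i had 17.8, 15.4 and 15.7 against 9.39, 11.5 and 11.2 (log2 −0.61, adjusted p = 0.104). Both were lower in each knockout library than in any control. Among the H2A genes with the highest means, Hist1h2ae (log2 −0.86, adjusted p = 0.184) did not overlap, and Hist1h2ao (−0.69) and Hist1h2ai (−1.14) did. Without cKO polysome replicate 1 these 3 differences were −0.45, −0.30 and −0.73. Hist1h2ao had 50.2, 31.6 and 41.2 against 14.6, 26.7 and 39.9, where the third knockout library was within the control range. For the linker histone gene Hist1h1c the values were 14.6, 15.3 and 19.5 against 13.1, 11.6 and 13.9 (log2 −0.35, adjusted p = 0.249), without overlap.

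**Figure D4:**
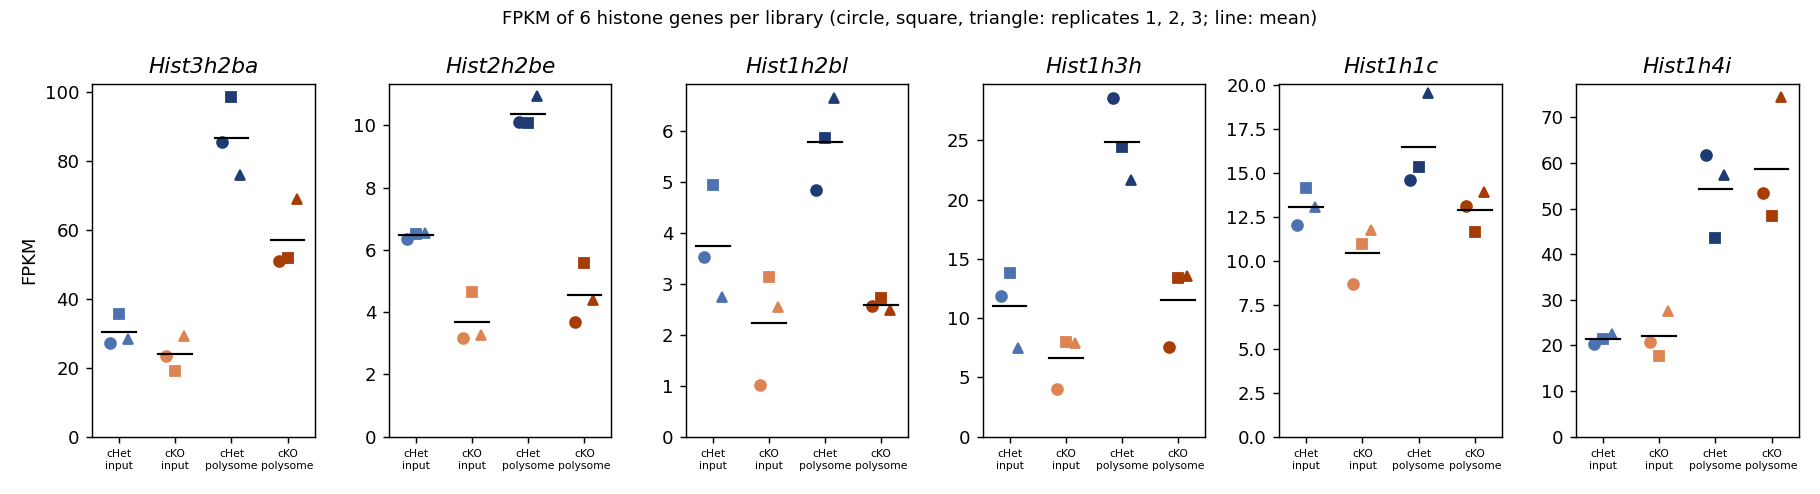
FPKM (y axis, starting at 0 in each panel) of 6 histone genes in the 12 libraries by group (x axis); circles, squares and triangles are replicates 1, 2 and 3 and the line is the mean of 3. Hist3h2ba, Hist2h2be, Hist1h2bl, Hist1h3h and Hist1h1c are lower on cKO than on cHet polysomes without overlap, and Hist1h4i, at 43.6 to 61.7 and 48.3 to 74.6, overlaps.

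Calls on polysomes depended on single libraries. Without cKO polysome replicate 1, which stood apart, 5 histone genes fell (0.471% of all genes did), namely Hist1h2bj, Hist1h2bl, Hist1h3h, Hist2h2be and Hist3h2a, at adjusted p between 0.0398 and 0.0444. Without cKO polysome replicate 2, 4 fell (0.866% of all genes), namely Hist1h2bk, Hist1h2bl, Hist1h3a and Hist2h2be. Without any other library of the comparison 0 fell. Hist1h2bl and Hist2h2be were in both sets. The median over the 51 genes was −0.55 with all libraries and −0.42 without replicate 1, and the ratio of summed FPKM on the log2 scale was −0.51 and −0.33. In input, the ratio was −0.36 with all libraries and −0.45 without cKO replicate 3, and it ranged from −0.48 without cHet replicate 3 to −0.21 without cKO replicate 1.

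The genotype medians were close whatever the 3′ end of the gene model. On polysomes they were −0.60 for 24 genes whose model ends within 200 bases of the stem-loop, −0.45 for 13 that run on past it, −0.60 for 5 with a 3′ untranslated region but no match, and −0.61 for 9 with none. In input they were −0.45, −0.33, −0.46 and −0.45. Medians were also negative both for the genes with at least 50% of windows of their own (−0.35 in input, −0.52 on polysomes) and for the rest (−0.40 and −0.68). The sign was the same in both sets.

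H4 genes differed least between genotypes by the sums. Summed H4 FPKM was 66.5, 86.3 and 59.2 in cHet and 50.003, 67.6 and 77.9 in cKO input, a ratio of means of 0.92, and 147, 134 and 142 against 97.5, 131 and 155 on polysomes, a ratio of 0.91. Both pairs of groups overlapped. Without cKO polysome replicate 1 the polysome difference was 0.02 on the log2 scale.

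The share that H4 genes take of all histone FPKM is a ratio within each library and does not depend on how libraries are scaled. It was 23.3%, 25.5% and 25.0% in cHet input and 28.3%, 27.6% and 31.0% in cKO input. On polysomes it was 24.6%, 23.0% and 25.2% in cHet and 32.5%, 30.9% and 31.1% in cKO. In both fractions every cKO library was above every cHet library, on average 24.6% ± 1.16 against 29.0% ± 1.77 in input and 24.3% ± 1.11 against 31.5% ± 0.846 on polysomes (SD, n = 3 each). The libraries that stood apart did not set this, since the smallest difference on leaving out a library was 3.39 percentage points in input and 6.59 on polysomes. As shares of reads rather than FPKM the polysome means were 23.0% and 29.5%.

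**Figure D5:**
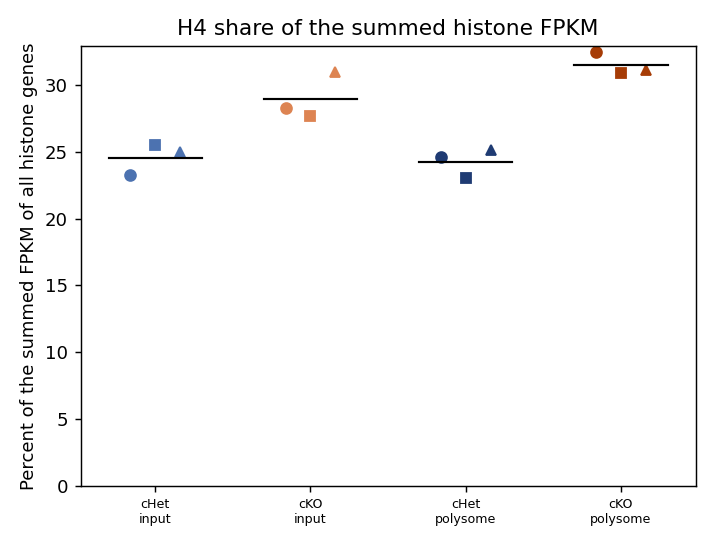
H4 share of the summed FPKM of all 67 histone genes in percent (y axis, starting at 0) in the 12 libraries by group (x axis); circles, squares and triangles are replicates 1, 2 and 3 and the line is the mean of 3. The cKO libraries, at 27.6% to 32.5%, all lie above the cHet libraries, at 23.0% to 25.5%.

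Hist1h4i, the H4 gene with the highest mean, gave part of this. On polysomes it had 61.7, 43.6 and 57.3 in cHet and 53.4, 48.3 and 74.6 in cKO (log2 0.11, SE 0.21, adjusted p = 0.787), with overlap. Among the other 12 H4 genes, and with Hist1h4i left out of all sums, the share was 18.3% ± 1.87 in cHet and 21.1% ± 2.02 in cKO input, with overlap, and 16.5% ± 0.450 against 19.6% ± 2.15 on polysomes, without overlap. No test was made of these shares, which are given as a description.

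Genes that make, bind or degrade histone mRNA, from lists of known factors, were compared in the same fits. Of 14 histone mRNA processing genes tested, 0 passed between genotypes in either fraction, with 11 lower in cKO input (median −0.23) and 12 higher on cKO polysomes (median 0.20). Lsm10, a subunit of the U7 particle that cleaves histone pre-mRNA, stood at 18.7, 18.3 and 18.1 FPKM in cHet and at 49.9, 32.5 and 60.3 in cKO input (log2 1.32, SE 0.22, adjusted p = 0.141). On polysomes it had 34.1, 39.2 and 33.7 against 47.1, 59.6 and 68.5 (log2 0.70, adjusted p = 0.113), so every knockout library was above every control in both fractions. Slbp, the gene of the stem-loop binding protein, had 15.6, 15.1 and 16.8 against 11.1, 14.3 and 9.12 in input (log2 −0.48, adjusted p = 0.276) and overlapped on polysomes (log2 0.13). Lsm11, the partner of Lsm10 in that particle, differed by 0.41 in input (adjusted p = 0.235). Of 7 tested histone mRNA decay genes, 0 passed between genotypes (medians −0.26 and 0.07), and of 13 histone chaperone and acetylation genes also 0 (medians −0.12 and 0.30).

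Genes of S phase and DNA synthesis were mostly lower in cKO input, as the histone genes were, but differed from them on polysomes. Of 38 tested, 30 were lower in cKO input (median −0.17), where 51.4% of all genes were below 0. On cKO polysomes 27 were higher (median 0.14), where 47.1% of all genes were below 0, and 0 passed in either. Pcna, the sliding clamp of the replication fork, had 111, 111 and 125 in cHet and 90.8, 101 and 80.8 in cKO input (log2 −0.35, adjusted p = 0.264). Tk1, thymidine kinase, was among the 8 higher in cKO input, at 15.7, 15.5 and 16.1 against 27.3, 24.3 and 35.1 (log2 0.85, adjusted p = 0.141). In cHet, 21 of the 38 fell on polysomes relative to input (25.9% of all genes) and 5 rose (27.3%), with a median of −0.48, with Dnmt1, the maintenance DNA methyltransferase, at a log2 of −1.43 (adjusted p = 8.69e-05), while 32 of 51 histone genes rose.

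Histone variant genes, whose mRNAs carry poly(A) tails (that of H2afx in part), were the family closest in product. All 11 had higher values on polysomes in cHet (median 1.01) and in cKO (median 0.82), and 7 rose in each (27.3% and 16.9% of all genes). Between genotypes 0 of 11 passed, with medians of 0.08 in input and −0.14 on polysomes. H2afx, of the H2A variant that marks DNA breaks, had 844, 850 and 812 on cHet and 401, 517 and 601 on cKO polysomes (log2 −0.74, adjusted p = 0.113), without overlap. H3f3b, a gene of the variant H3.3, had 1079, 1022 and 1053 against 804, 769 and 856 (log2 −0.38, adjusted p = 0.203), also without overlap. H2afz had 398, 415 and 419 in cHet input, more than the summed FPKM of all 67 replication-dependent genes. That sum lacks any histone RNA that was not captured and any reads left uncounted.

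RNAs listed as lacking a poly(A) tail were read in input for whether tailless RNA was captured. Rn7sk, the 7SK RNA, had 11.4, 14.3 and 13.8 in cHet input, and of 10 such RNAs listed 3 reached a test. Of the 8 such RNAs in the deposited table, 3 were at 0 in every cHet input library. How far the libraries hold the tailless histone mRNAs in full was not tested, so the histone values describe the RNA that was captured.

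Markers of cell types gave these values beside the genotype differences. Of 7 macrophage markers, 7 had higher values in cKO in both fractions, 6 of them without overlap in each (16.9% of all genes in input and 17.9% on polysomes), and their summed FPKM ranged from 32.8 to 37.7 in cHet and from 40.8 to 56.6 in cKO input. On polysomes the ranges were 27.2 to 37.8 and 41.1 to 71.1. Of 6 epidermis markers, 4 were higher in input and 5 on polysomes, with sums of 215 to 218 and 260.5 to 286 in input and 97.7 to 109 and 132 to 271 on polysomes. Limb mesenchyme markers, which check the labelled tissue, summed to 658 to 802 in cHet and 902 to 1074 in cKO input. Of the 9, 8 were higher in cKO input and 7 on cKO polysomes, where the sums overlapped at 1163 to 1353 and 1125 to 1563. Erythroid markers summed to 9074 to 23495 in cHet and 5683 to 14047 in cKO input, with overlap, and all 7 had lower values in cKO. Early cartilage markers summed to 86.9 to 121 and 90.0 to 108 in input, endothelium markers to 35.4 to 42.0 and 34.8 to 43.9, and muscle progenitor markers to 346 to 412 and 352 to 450, all with overlap. None of the listed markers passed between genotypes in either fraction. The part of these cells in the histone values was not tested.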

How the data were processed

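Reads were aligned with HISAT2 2.0.5 to mm10 and counted with featureCounts 1.5.0-p3, per the submitters' processing notes, and the authors deposited FPKM values of 54532 genes in 12 libraries. Multiplied by gene length, 100% of the values above 0 gave whole reads within a tolerance of 0.01. Median-ratio size factors of the deposited FPKM were equal in all 12 libraries to within 1e-06, so median-ratio scaling changed little. Not given in the sources used here are strandedness and the counting of reads that fit several places. Per the labels' protocols, total RNA came from a Zymo Microprep kit and went into NEBNext Ultra II libraries.

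Values were fitted as log2(FPKM + 0.1) with limma 3.58.1 (R 4.3.3, empirical Bayes with trend), over all genes with an FPKM of at least 1 in at least 3 fitted libraries. Genotypes were compared on 6 libraries, and fractions and their interaction on 12. A gene rose or fell at a two-sided Benjamini-Hochberg adjusted p under 0.05. Differences on this scale understate the change of low genes. With 3 libraries against 3, an exact permutation test cannot go below p = 0.1. The fit was tested on simulated data. Input and polysome libraries of 1 number and genotype were taken as 1 lysate from the study's design text, and the correlation of their deviations was 0.05 to 0.25. Nothing says that replicates came from separate litters, so p-values measure the spread between these samples.

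Named were, per class, genes with the 3 highest means and, per comparison, the 5 largest changes each way or, where none passed, the 4 smallest p, and per list up to 3 genes with the smallest p. Hist1h4b, Hist1h2bk, Hist1h3a and the members of head-to-head pairs were named after their values were seen. The members and lists were chosen with earlier results of these data known.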

Additional observations from a re-analysis of the deposited data

How the results depend on the processing

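Alternatives were pseudocounts of 0.01 and 1, other filters, median-ratio, protein-coding and quantile scaling, voom, robust empirical Bayes, a replicate block and leaving out single libraries. Added with the data in view were removal of the length trend, leaving out both libraries that stood apart, a genotype fit on all 12 libraries, and the alternatives for H4. On cKO polysomes 0 to 5 histone genes fell on leaving out single libraries, 2 in the fit on 12 libraries (0.279% of all genes) and 3 with the replicate number as a block (0.0854%). That number does not pair the genotypes (same-numbered libraries correlated at −0.28 to 0.17), and the block gave 0 in input. In cHet, 21 genes rose on polysomes with protein-coding scaling (18.1% of all genes), 21 with the length trend removed (26.8%) and 19 to 31 without single libraries. Genes that fell numbered 1 with a pseudocount of 1 (26.3% of all genes), 2 with protein-coding scaling (33.6%), 2 with the length trend removed (21.9%), 1 without both libraries (35.7%) and 0 to 2 without single ones. In cKO, 6 genes rose with no filter (5.79% of all genes) and 1 fell (5.58%), 7 rose with protein-coding scaling (12.4%), 22 with the lysate as replicate block (18.1%), 31 without both libraries (29.5%) and 4 to 30 without single ones.

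With protein-coding scaling, the log2 ratio of all histone FPKM between cHet polysomes and input was 0.78, against 1.01 as deposited. For the interaction this ratio was −0.15, with a range of −0.32 to 0.025 without single libraries (the highest without cKO polysome replicate 1), and 0.115 without both libraries, where the median over the 51 genes was 0.057. The H4 sum differed between genotypes by −0.26 to 0.053 in input and −0.30 to 0.022 on polysomes without single libraries, and by 0.022 on polysomes without the one that stood apart. The H1 sum turned to 0.123 between genotypes on polysomes without gene models over 1 kb. Between cHet polysomes and input it turned to −0.76 without them, −0.20 with protein-coding scaling and −0.079 to 0.15 without single libraries, and in cKO to −0.075 without those models.

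Hist1h4i, at 0.01 between genotypes in input, was −0.16 to 0.156 without single libraries, −0.0020 with median-ratio, −0.038 with protein-coding and −0.045 with quantile scaling, −0.031 with voom and −0.020 with the length trend removed. On polysomes it was −0.078 to 0.234 without single libraries. The cause of these changes was not tested. Depth limits the low genes, with at most 65 reads of Hist1h2af in a library.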
